A study of Mus musculus with 2 samples.

Results

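The conjugating enzymes of the mouse fetal liver were taken as all protein-coding genes whose symbols begin with Ugt1a, Ugt2, Ugt3, Gsta, Gstm, Gstp, Gstt or Sult. There were 59 such genes among 43346 mouse gene identifiers, of which 21474 are protein coding: 20 Ugt, 18 Gst and 21 Sult genes. They were measured in poly(A)+ RNA from liver of C57BL/6J embryos at embryonic day 18, in 2 libraries that the labels number as biological replicates of 1 group. Each library is described as a pool of littermates of both sexes, with no treatment, transgene or second age. With 1 group and 2 libraries there is no contrast between conditions, so levels and their spread are given without p-values. Nothing in the labels says whether the 2 RNA pools came from separate litters.

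Conjugation is the second phase of drug, hormone and waste handling, and the liver is its main site. UDP-glucuronosyltransferases (Ugt), which sit in the endoplasmic reticulum, join a sugar, usually glucuronic acid, to a lipophilic molecule. Glutathione transferases (Gst) join glutathione to electrophiles, and cytosolic sulfotransferases (Sult) move a sulfate group onto phenols, steroids and amines. The products are more soluble in water and leave the cell through export pumps. The Ugt1a locus is unusual in its build: each gene has a first exon of its own, with its own promoter, which is spliced to exons that all the Ugt1a genes share.

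Total expected counts on mouse genes were 159127988 in replicate 1 and 136904873 in replicate 2. An expected count is the estimated number of fragments of a gene after fragments that match several genes have been shared out. All 8 hepatocyte markers were detected, with a summed TPM of 142956 and 145514. TPM expresses a gene's abundance per unit of length, relative to all genes of its library. The libraries did not match the label of mixed sexes. Xist, the RNA of the inactive X chromosome, had 157187 counts in replicate 1 and 41 in replicate 2, while 4 Y-linked genes together had 8 and 18351. Any difference between the replicates therefore cannot be told apart from one between the sexes. In whole tissue, fewer cells of a type and less RNA per cell cannot be told apart either.

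Because the first exon is the main part that tells the Ugt1a transcripts apart, the junctions of the 9 genes are shown here. Each line gives the last 40 bases of the gene's own exon in lower case and the first 20 bases of the shared exon 2 in capitals, from GENCODE M21 transcripts on mm10. The lines of Ugt1a6a and Ugt1a6b come from Ugt1a6a-201 and Ugt1a6b-201. These held on average 12.7% and 1.24% of the TPM of their genes, while Ugt1a6a-202 and Ugt1a6b-202 held 72.8% and 98.8%. The shared exon starts at base 88215044 of chromosome 1.
Ugt1a1: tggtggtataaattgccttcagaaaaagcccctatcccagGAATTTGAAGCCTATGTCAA
Ugt1a6a: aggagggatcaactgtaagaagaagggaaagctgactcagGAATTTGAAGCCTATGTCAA
Ugt1a6b: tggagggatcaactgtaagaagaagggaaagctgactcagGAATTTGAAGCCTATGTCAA
Ugt1a7c: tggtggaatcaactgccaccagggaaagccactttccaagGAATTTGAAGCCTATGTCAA
Ugt1a5: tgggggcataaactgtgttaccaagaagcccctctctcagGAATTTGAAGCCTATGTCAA
Ugt1a2: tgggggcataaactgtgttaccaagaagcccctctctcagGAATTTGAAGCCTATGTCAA
Ugt1a8: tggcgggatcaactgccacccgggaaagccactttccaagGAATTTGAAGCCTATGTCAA
Ugt1a9: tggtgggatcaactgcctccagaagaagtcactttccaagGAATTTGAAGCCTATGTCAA
Ugt1a10: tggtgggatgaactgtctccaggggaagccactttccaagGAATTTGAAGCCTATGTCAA
The capitals are the same in all 9 lines, so only the lower-case part tells which gene a read came from. Ugt1a6a and Ugt1a6b are the same for 39 bases before the junction and at 98.4% of the last 500 bases of their exons. Ugt1a5 and Ugt1a2 are the same for 116 bases before it, so their lines do not differ. Ugt1a1 shares only 3 bases before the junction with either of them.

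Of the 59 genes, 34 reached a mean TPM of 1 and are called detected, which is 57.6%. Over all protein-coding genes the share was 54.7%. At 10 TPM or more there were 19, and 3 genes (Sult1c1, Ugt2a2 and Sult2a7) had no count in either library. Together the genes held 0.217% ± 0.0116 (SD, n = 2) of the TPM of mouse genes. The Gst genes made up most of this, with a summed TPM of 1687 ± 58.1 (SD, n = 2), the Ugt genes 250.0 ± 46.1 (SD, n = 2) and the Sult genes 168 ± 4.03 (SD, n = 2). Detection also differed by class, with 15 of 18 Gst, 11 of 20 Ugt and 8 of 21 Sult genes at 1 TPM or more.

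**Figure D1:**
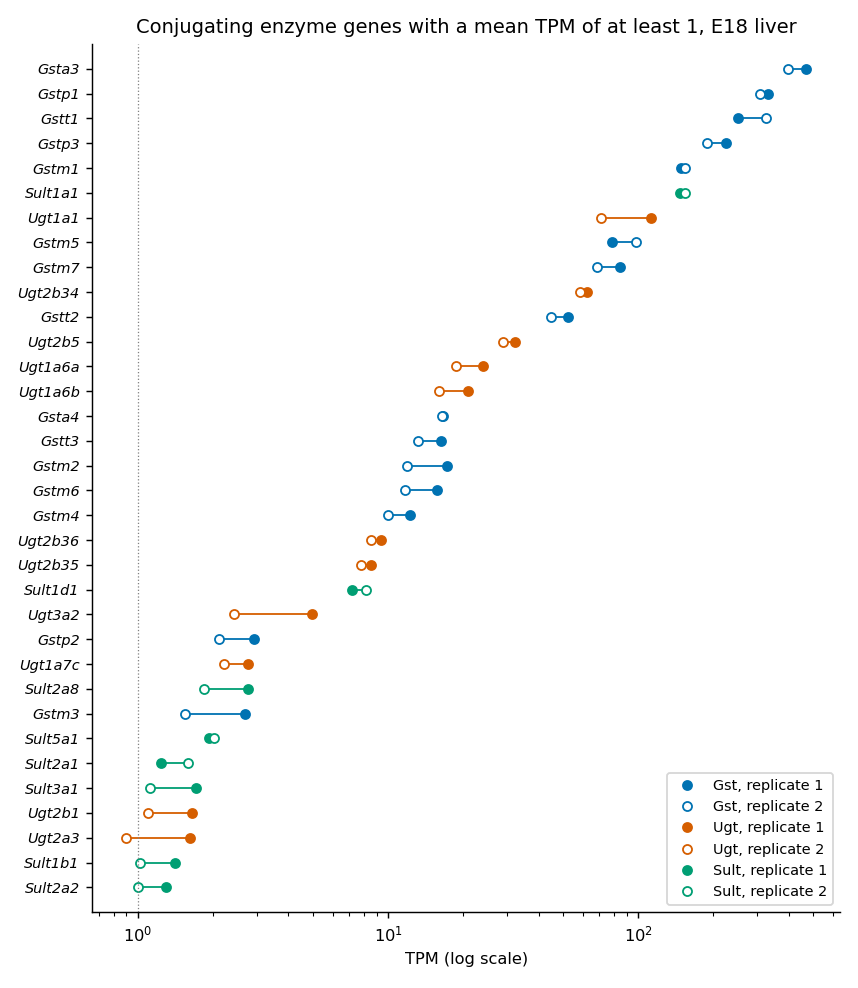
TPM (log scale) of each of the 34 conjugating enzyme genes whose mean TPM reached 1, in replicate 1 (filled) and replicate 2 (open), coloured by class. Values run from Gsta3 at 471 and 396 TPM to Sult2a2 at 1.29 and 1.00, and for most genes the 2 libraries lie close together against the range over genes.

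Among the glutathione transferases, the alpha-class gene Gsta3 was highest. It stood at 471 TPM in replicate 1 and 396 in replicate 2 (433 ± 53.2, SD, n = 2), above 99.0% of protein-coding genes. It held 96.2% ± 0.353 (SD, n = 2) of the TPM of the 4 Gsta genes. Gsta4, which conjugates the lipid peroxidation product hydroxynonenal, was at 16.6 and 16.5 TPM. The neighbouring alpha-class genes Gsta2 and Gsta1 were below 1 TPM: Gsta2 at 0.51 and 0.090, Gsta1 at 0.090 and 0.020. Gsta3 lies apart from these 3 genes, on chromosome 1 (mm10 bases 21240589 to 21265661), while the others span bases 78182774 to 78355788 of chromosome 9.

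The pi-class genes stand side by side on chromosome 19 (mm10 bases 4035407 to 4059569) at very unequal levels. Gstp1, an enzyme for a wide range of electrophiles, was at 332 and 306 TPM (319 ± 17.8, SD, n = 2). Gstp3 was at 225 and 188 TPM, and Gstp2, which lies between them, at 2.92 and 2.12. The level of Gstp2 was thus below that of both neighbours in both libraries. Theta-class enzymes act on small halogenated molecules among others. Gstt1 was at 251 and 323 TPM (287 ± 51.1, SD, n = 2), Gstt2 at 52.5 and 45.0 and Gstt3 at 16.3 and 13.2, and Gstt4 was at 0.040 and 0.020. With 2 libraries each, the ranges of Gstp1 and Gstt1 overlapped, so their order is not fixed. Those of Gsta3 and Gstp1 did not overlap.

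All 7 mu-class genes were detected. Gstm1 was highest at 149 and 154 TPM (151 ± 3.44, SD, n = 2), followed by Gstm5 at 78.8 and 97.6 and Gstm7 at 84.4 and 68.8. Gstm5 and Gstm7 overlapped. Gstm2 was at 17.2 and 11.9 TPM, Gstm6 at 15.8 and 11.7, Gstm4 at 12.3 and 10 and Gstm3 at 2.68 and 1.54. The Gstm cluster (chromosome 3, mm10 bases 107895821 to 108044894) thus had no silent member, with Gstm3 the lowest.

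Ugt1a1, the enzyme that conjugates bilirubin, was the highest glucuronosyltransferase. It stood at 113 TPM in replicate 1 and 71.3 in replicate 2 (92.0 ± 29.3, SD, n = 2). It made up 67.7% ± 3.17 (SD, n = 2) of the TPM of the 9 Ugt1a genes. Ugt1a6a, whose enzyme takes small phenols, was at 24.1 and 18.7 TPM, Ugt1a6b at 20.8 and 16.0 and Ugt1a7c at 2.76 and 2.21. The transcript Ugt1a7c-202 held 30.3% of the TPM of Ugt1a7c in replicate 1 and 0 in replicate 2. The other 5 Ugt1a genes lay below 1 TPM in both libraries: Ugt1a5 at 0.46 and 0.35, Ugt1a9 at 0.22 and 0.25, Ugt1a10 at 0.10 in both, Ugt1a2 at 0.050 and 0.10, and Ugt1a8 at 0.030 and 0.020. Along the locus (chromosome 1, mm10 bases 88055388 to 88220002), Ugt1a1 is the last first exon before the shared ones.

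The Ugt2 genes, known for steroid hormones and bile acids, were led by Ugt2b34 at 62.6 and 58.4 TPM (60.5 ± 2.97, SD, n = 2). It held 54.7% ± 0.906 (SD, n = 2) of the Ugt2 total. Ugt2b5 was at 32.0 and 28.7 TPM, Ugt2b36 at 9.34 and 8.59 and Ugt2b35 at 8.57 and 7.83. Ugt2b1 was at 1.65 and 1.10 TPM and Ugt2a3 at 1.62 and 0.90. Ugt2b38 and Ugt2b37 did not exceed 0.060 TPM in either library, and Ugt2a2 had no count. The limit that a count of 0 allows is 3 counts in each library. Of the Ugt3 pair, whose enzymes use sugars other than glucuronic acid, Ugt3a2 was at 4.97 and 2.42 TPM and Ugt3a1 at 0.47 and 0.33. Ugt2a1, which the rule also covers, was not analysed here.

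Sulfotransferase RNA came nearly all from 1 gene. Sult1a1, the phenol sulfotransferase, was at 147 and 153 TPM (150.1 ± 4.72, SD, n = 2) and held 89.5% ± 0.662 (SD, n = 2) of the Sult total. Sult1d1, which acts on catecholamines among others, was at 7.16 and 8.16 TPM, and Sult1b1, which acts on thyroid hormone, at 1.41 and 1.02. Sult1e1, the oestrogen sulfotransferase, had 1 count in replicate 1 and 0 in replicate 2. Of the hydroxysteroid sulfotransferases, Sult2a8, known for bile acids, was at 2.75 and 1.84 TPM, Sult2a1 at 1.24 and 1.59 and Sult2a2 at 1.29 and 1.00. The values of Sult2a8 lay above those of Sult2a1 and Sult2a2, which overlapped each other. Sult3a1 was at 1.70 and 1.12 TPM and Sult5a1 at 1.92 and 2.02. Sult2b1, which sulfates cholesterol, was at 0.30 and 0.11 TPM. The remaining detected fragments were few: Sult1c2, Sult2a3, Sult2a4, Sult2a5, Sult2a6, Sult3a2, Sult4a1, Sult6b1 and Sult6b2 each had at most 20 counts in a library. All 8 genes of the Sult2a cluster (chromosome 7, mm10 bases 13623967 to 14494230) summed to 5.50 TPM in replicate 1 and 4.59 in replicate 2.

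**Figure D2:**
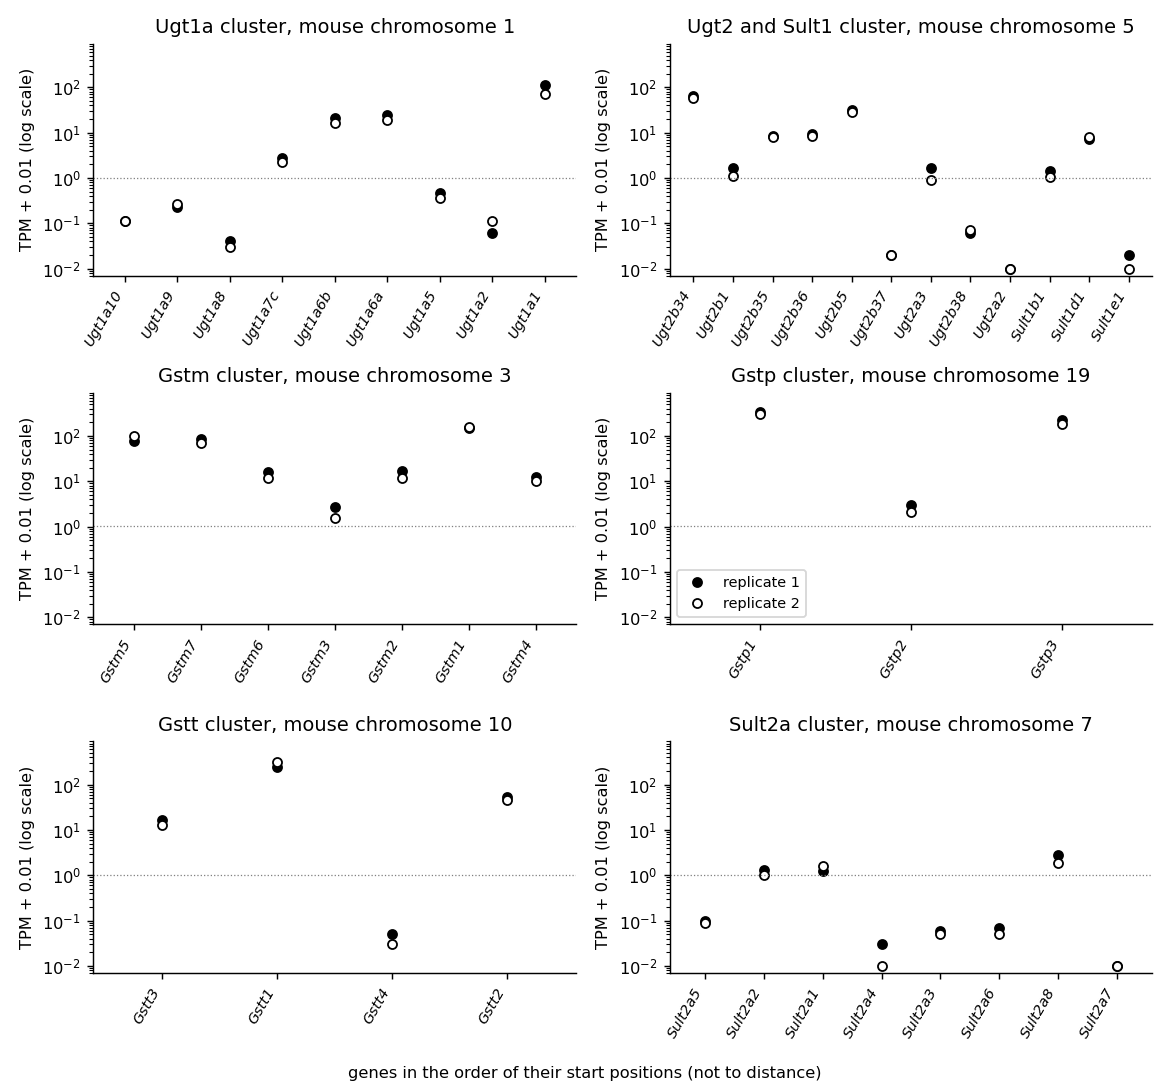
TPM plus 0.01 (log scale) of the genes of 6 clusters, in genomic order, in replicate 1 (filled) and replicate 2 (open); the dotted line is at 1 TPM. Neighbouring genes differ widely, with Gstp2 at 2.92 and 2.12 TPM between Gstp1 and Gstp3, while the Gstm cluster has all 7 genes above the line.

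Some neighbours share stretches of sequence, and a read that lies within one matches more than 1 gene. Of the 101-base windows in its transcripts, Gstp1 shared 38.2% with another gene's transcripts, all with Gstp2, and Gstp2 shared 42.0%. The value of 101 bases is the read length in the labels. The upstream stretches of both genes are shown because they are alike while the levels are not. Each gives the 150 bases before the RefSeq start (GRCm38.p6), and the capitals mark the longest run found in both, of 34 bases. GENCODE places the starts of these minus-strand genes elsewhere, at base 4037985 for Gstp1 and 4046023 for Gstp2. Part of the Gstp1 stretch and all of the Gstp2 stretch thus lie inside the GENCODE genes.
Gstp1, chr19:4037913-4038062, minus strand: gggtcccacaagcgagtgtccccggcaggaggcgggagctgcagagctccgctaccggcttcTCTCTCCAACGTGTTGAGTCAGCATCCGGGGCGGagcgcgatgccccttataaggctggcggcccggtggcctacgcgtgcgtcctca
Gstp2, chr19:4042222-4042371, minus strand: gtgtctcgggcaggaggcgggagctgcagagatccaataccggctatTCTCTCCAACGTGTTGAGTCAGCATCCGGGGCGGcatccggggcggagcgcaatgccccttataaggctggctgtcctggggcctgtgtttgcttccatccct
The authors' tables give a posterior standard deviation (SD) of each count, a measure of how far shared fragments could be placed otherwise. For Gstp2 it was 3.79% of the posterior mean count at most, and for Gstp1 0.0397%. Of the 44 members that reached a mean count of 10, 4 had a posterior SD of at least 10% of the count: Ugt1a5, Ugt1a9, Ugt1a10 and Ugt1a2. All 4 are Ugt1a genes below 1 TPM. It was at least 1% in 13 members and 0 in 24. The same shares over all genes were not computed, so these counts do not show whether the members differ from other genes. For Ugt1a1 the posterior SD was at most 0.461%, although 57.2% of the windows of Ugt1a1 occur in another Ugt1a gene. For Ugt1a6a, with 95.7% of windows shared, and Ugt1a6b, with 70.8%, it was at most 1.52% and 1.63%. Of the 2240 shared windows of Ugt1a6a, 2197 occur in transcripts of Ugt1a7c, while Ugt1a8 shares 1237 windows with Ugt1a7c. Annotated Ugt1a7c transcripts thus also hold sequence of Ugt1a6a. Gsta1, also below 1 TPM, shared 81.7% of its windows, most of them with Gm3776, and Gsta2 shared 24.7%. Their posterior SD was at most 3.61% and 5.73%. How far sharing bears on their low levels was not tested.

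A separate set of deposited tables, on the older build mm9 and another annotation, gave 2 RPKM values (read density per kilobase and depth) for each gene. The columns do not name the replicate, so the mean of the authors' values is given with no SD. Over the 58 members in both sets, Spearman's rho between mean TPM and mean RPKM was 0.974. This is across genes, which share the same libraries and are not replicates. Gstp2 stood out with a mean RPKM of 6.12 against 24.3 for Gstp1, so that Gstp1 was 3.97-fold higher there and 127-fold higher in TPM. Reads across listed splice junctions whose 2 exon ends are annotated to 1 gene alone had a median of 13238 per junction for Gstp1. For Gstp2 it was 318, a ratio of 41.6. Each gene had 6 such junctions, with 78832 reads in all for Gstp1 and 4338 for Gstp2, so the gap in totals was smaller. Whether these reads match 1 gene only was not tested. Gstp2 was the lower gene in all 3 measures, and the size of the gap differed between them. Ugt2b38 likewise had a mean RPKM of 1.01 and a mean TPM of 0.055. It shares 24.1% of its windows, all with Ugt2b5, whose mean RPKM was 8.06 and mean TPM 30.4. Ugt2b38 had 17 reads over its own junctions and Ugt2b5 7376. Both of these genes were singled out after their values were seen.

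**Figure D3:**
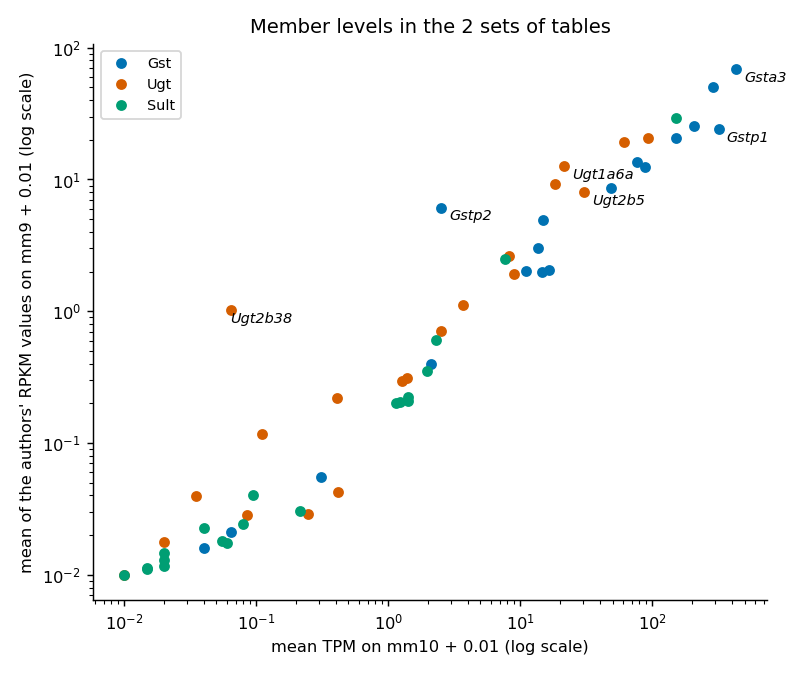
Mean TPM on mm10 against the mean of the authors' RPKM values on mm9 (both plus 0.01, log scales) for 58 conjugating enzyme genes, coloured by class. Most points follow 1 band, and Gstp2 (2.52 TPM, 6.12 RPKM) and Ugt2b38 (0.055 TPM, 1.01 RPKM) lie above it.

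Use of the Ugt1a first exons was read directly from the deposited mm9 junction list, which counts reads R1 and R2 without naming the replicate. A total of 3340 reads joined a listed first exon to the shared exon 2 (mm9 chromosome 1, bases 90111619 to 90111750). Ugt1a1 had 1841 of them (1200 and 641), which is 55.1% with an exact 95% binomial interval of 53.4% to 56.8%. Ugt1a6a had 765 reads (22.9%, interval 21.5% to 24.4%), Ugt1a6b 646 (19.3%, interval 18.0% to 20.7%) and Ugt1a7c 66 (1.98%, interval 1.53% to 2.51%). Ugt1a10 had 10 reads, and Ugt1a9, Ugt1a8, Ugt1a5 and Ugt1a2 had 3 each. Ugt1a5, Ugt1a2 and Ugt1a9 had the same values (3 and 0). The 116 bases that Ugt1a5 and Ugt1a2 share before the junction exceed the read length of 101. A read across that junction therefore cannot by itself tell these 2 genes apart. Whether another read of the same fragment could was not tested. The intervals cover counting error only, since reads without molecular identifiers are not independent molecules. The junctions put the genes in the same order as the TPM down to Ugt1a7c. The share of Ugt1a1 was lower in junction reads than in TPM, at 67.7%, or in expected counts, at 65.8% ± 3.39 (SD, n = 2). With the junctions of Ugt1a6a and Ugt1a6b counted as 1, at the larger of their counts, Ugt1a1 had 68.3%. That setting was chosen after seeing the data, because the lines above are nearly the same for these 2 junctions. Whether reads were counted at both members of either pair was not tested.

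**Figure D4:**
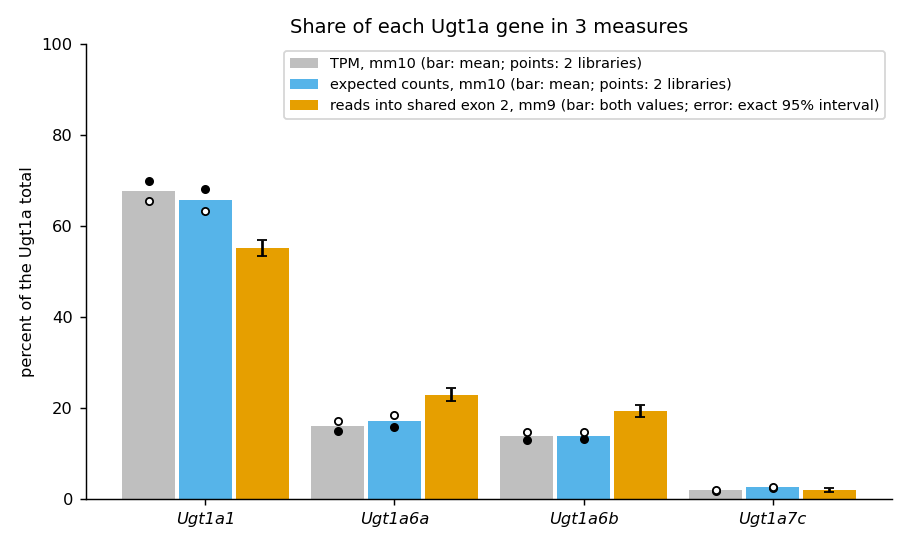
Percent of the Ugt1a total held by 4 genes in TPM, in expected counts (bars: mean; filled and open points: replicates 1 and 2) and in reads across the junction into shared exon 2 (bars: R1 and R2 summed; error bars: exact 95% interval). Ugt1a1 holds 67.7%, 65.8% and 55.1% in the 3 measures, and Ugt1a6a and Ugt1a6b hold more in junction reads than in TPM.

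Transcript shares were read from the transcript tables. Of the 19 members at 10 TPM or more, 14 have several annotated transcripts, and the leading transcript was the same in both libraries in 14 of 14. It held at least 90% of the gene's TPM in both libraries in 6 of them. These counts were not computed over all genes, so they describe the members only. Gsta3 was divided between a leading transcript at 53.5% and 50.8% (ENSMUST00000121676) and another at 41.2% and 42.9%, both protein coding. The leading transcript of Sult1a1 held 80.7% and 75.4%. In Ugt1a6a the leading transcript held 74.2% and 71.3%, and a retained-intron transcript 11.8% and 15.5%.

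Upstream sequence was available from RefSeq for 51 of the 59 genes. The motif GTTAAT, read on both strands (ATTAAC on the other), is an arm of the palindromic site bound by hepatocyte nuclear factor HNF1. The windows run from 250 bases before to 50 after a start, and a gene can have several, so the 51 genes have 60 windows. The motif occurred in 14 of these 60 (23.3%), each of a different gene, and in 7.10% of all 32851 mouse windows. It was present in 6 of 28 member genes at 1 TPM or more and in 8 of 23 below. Genes of a cluster are related copies, so their windows are not independent. TGACNNNGC, the core of the antioxidant response element, occurred on either strand in 3 of the 60 windows (Gsta3, Gstm5 and Gstm7) against 12.4% of all windows. TATAAA, on the sense strand only, occurred in 9 of the 60 windows against 8.32% of all windows. The 150 bases before the start are shown for 3 Ugt1a genes at unlike levels and for Gsta3, the highest member, with matches to GTTAAT and TGACNNNGC on either strand in capitals.
Ugt1a1, chr1:88211809-88211958, plus strand: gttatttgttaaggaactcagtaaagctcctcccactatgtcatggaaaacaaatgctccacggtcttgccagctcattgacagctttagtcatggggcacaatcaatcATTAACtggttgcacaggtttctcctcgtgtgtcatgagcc
Ugt1a6a, chr1:88134659-88134808, plus strand: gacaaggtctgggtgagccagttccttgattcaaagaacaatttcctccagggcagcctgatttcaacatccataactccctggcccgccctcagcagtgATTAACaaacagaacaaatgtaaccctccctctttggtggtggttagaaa
Ugt1a9, chr1:88070629-88070778, plus strand: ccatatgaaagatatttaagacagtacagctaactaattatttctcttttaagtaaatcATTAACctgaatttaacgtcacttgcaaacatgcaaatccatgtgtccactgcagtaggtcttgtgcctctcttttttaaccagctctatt
Gsta3, chr1:21240435-21240584, plus strand: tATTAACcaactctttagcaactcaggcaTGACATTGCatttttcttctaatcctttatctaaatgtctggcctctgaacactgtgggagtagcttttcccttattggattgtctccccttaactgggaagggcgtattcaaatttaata
Ugt1a1, Ugt1a6a and Ugt1a9 each carry 1 match within these bases, at 41, 50 and 91 bases before the start, and Ugt1a9 was at 0.22 and 0.25 TPM. The Ugt1a6a stretch ends at base 88134808, while the exon in its junction line starts at base 88138378, so the 2 belong to different starts. Gsta3 carries 1 match to each motif. A match describes letters and does not show binding.

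Set against each other, the libraries differed by less than 2-fold in nearly all of the better counted members, and most of the differences were in 1 direction. Ratios are log2 values of replicate 2 over replicate 1, from TMM-scaled counts plus 0.5. Of the 44 members that reached a mean count of 10, 35 were lower in replicate 2 and 9 higher, while 50.6% of all genes with that count were lower. The median log2 ratio of the members was -0.40 and that of all genes -0.0031. In ratios of TPM, 33 members were lower and 10 higher, against 31.7% of all genes lower. Gstm1 and Sult1a1 were lower in scaled counts and higher in TPM. Among the 37 members that reached a mean count of 50, Ugt3a2 alone was lower beyond 2-fold (1 of 37), against 1.47% of all genes at that count, and 0 of 37 were higher, against 0.348%. Ugt3a2 had 1613 and 644 counts, a log2 ratio of -1.16, or 2.23-fold with a counting interval of 2.04 to 2.45. Other low ratios were those of Ugt2a3 at -0.96, Gstm3 at -0.91 and Ugt1a1 at -0.77, with 35216 and 18409 counts of Ugt1a1. Gstt1, at 0.24, and Gstm5, at 0.16, were higher in replicate 2. Gsta2 (49.8 and 7 counts) had a ratio of -2.59 but did not reach that count. With 1 library on each side, none of these ratios has a replicate check.

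**Figure D5:**
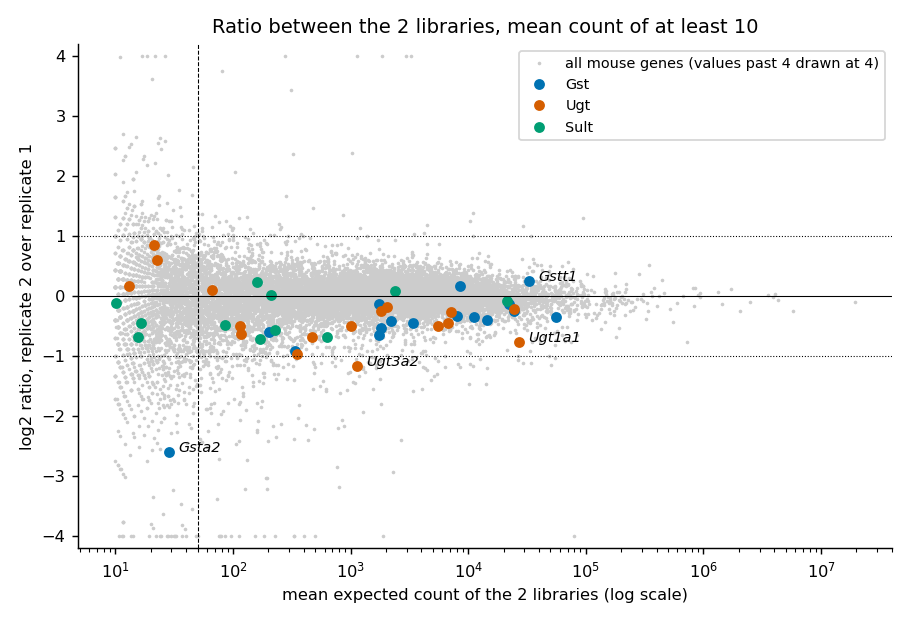
Log2 ratio of replicate 2 over replicate 1 against mean expected count (log scale) for all mouse genes that reached a mean count of 10 (grey) and the 44 members (coloured by class); the vertical line is at a mean count of 50 and the dotted lines at 2-fold. Members lie mostly below 0, with a median of -0.40, and Ugt3a2 at -1.16 is the only one past 2-fold to the right of the vertical line.

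Markers of other cells also differed between the libraries. The summed TPM of 10 markers of pancreas acinar cells was 56.6 in replicate 1 and 0.90 in replicate 2, with all 8 of those that reached a mean count of 10 lower. Pnlip was at 0.010 TPM and 0, and Ptf1a at 0 in both. The 6 neutrophil markers summed to 8879 and 12820 TPM, and all 6 were higher in replicate 2. The 6 B lymphoid markers, which summed to 130.6 and 95.4 TPM, and the 7 erythroid markers, which summed to 1226 and 1195, were all lower in replicate 2, though only 4 of the 7 erythroid markers in ratios of TPM. Of the 6 cholangiocyte markers 5 were lower, and they summed to 98.4 and 70.6 TPM. The 7 gut epithelium markers summed to 43.1 and 45.5 TPM, and of the 6 that reached a mean count of 10, 5 were lower, 2 of them beyond 2-fold. Among these, Fabp2 was at 12.0 and 5.37 TPM and Lgals4 at 30.0 and 39.2. The 8 striated muscle markers summed to 25.9 and 22.8 TPM, and 6 of 7 were lower, 4 of them beyond 2-fold. The macrophage and endothelial markers divided evenly in direction, with 3 of 6 lower in each list, and 3 of 7 stellate or mesenchymal markers were lower. Among the macrophage markers, Clec4f was lower beyond 2-fold (17470 and 7500 counts, log2 ratio -1.05). Marco was higher, just past 2-fold (7894 and 14120 counts, log2 ratio 1.00). No endothelial marker passed 2-fold. The part of these cells, of the sexes and of depth in the members' ratios was not tested. Of the 8 hepatocyte markers, 3 were lower and 5 higher. Markers of kidney tubule, lung epithelium, olfactory epithelium and adrenal cortex, tissues known for some of these enzymes, each had 0 genes at 1 TPM and sums of at most 1.08 TPM.

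The supply of the 3 co-substrates was measured with lists chosen with earlier results of these data known. For glucuronic acid, 4 of 5 genes were detected: Ugp2, which makes UDP-glucose, was at 39.7 and 50.9 TPM, and Ugdh, which oxidises it to UDP-glucuronic acid, at 13.0 and 20.4. The carriers Slc35b1 and Slc35d1 were at 21.3 and 21.8 and at 7.20 and 8.57 TPM. For sulfate, 6 of 7 genes were detected, all lower in replicate 2 by a median log2 ratio of -0.12. The enzyme that makes the activated sulfate, Papss2, was at 11.3 and 10.8 TPM, the sulfate transporter Slc26a1 at 21.4 and 17.6, the phosphatase Bpnt1 at 20.3 and 19.9 and the carrier Slc35b2 at 15.4 and 16.1. For glutathione, 10 of 12 genes were detected, 6 lower and 6 higher. The cysteine-making enzymes Cth and Cbs were at 115 and 110 TPM and at 76.2 and 83.2, Gclm, a subunit of the rate-limiting ligase, at 88.9 and 76.8, and Ggt1 at 52.2 and 73.2. No gene of these 3 lists passed 2-fold. In ratios of TPM, 4 of the 6 sulfate genes were lower.

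Other genes of glutathione transferase folds or activity, outside the families above, summed to 1747 and 1559 TPM over 12 listed genes, against 1728 and 1646 for the 18 Gst genes. Among the 12, the membrane-bound Mgst1 was at 1204 and 1001. Mgst1 was thus above every member of the soluble classes in both libraries. Gstz1, the maleylacetoacetate isomerase of tyrosine breakdown, was at 189 and 170 TPM, Eef1g, a translation factor with a transferase-like domain, at 135 and 159, and Mgst3 at 137 and 133. Among 13 genes of other conjugation routes, 11 had a mean count of at least 10 and all 11 were lower in replicate 2, or 6 of 11 in ratios of TPM. Gnmt was at 311 and 316 TPM, Acsm1 at 85.1 and 79.2 and the thiol methyltransferase Tpmt at 17.3 and 13.2. Inmt, with 359 and 34 counts (log2 ratio -3.22), and Glyat, the glycine conjugating enzyme, with 491 and 166 (-1.40), were lower beyond 2-fold.

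Bilirubin passes through several of these steps, and 7 of the 8 genes listed for its route were detected. The haem oxygenases Hmox1 and Hmox2 were at 110 and 116 TPM and at 32.7 and 32.5. The biliverdin reductases Blvra and Blvrb were at 19.6 and 18.6 TPM and at 320.0 and 324. These levels do not show how much of the bilirubin that Ugt1a1 conjugates comes from either reductase. The uptake carrier Slco1b2 was at 34.9 and 22.1 TPM, with a log2 ratio of -0.80. Ugt1a1 was at 113 and 71.3, and the canalicular export pump Abcc2 at 52.7 and 48.0 TPM. Gsta1, whose protein binds bilirubin in the cytosol, was the undetected gene of the 8. All 7 detected genes were lower in replicate 2, by a median log2 ratio of -0.15, or 5 of 7 in ratios of TPM.

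Other transporters of conjugates were the efflux pumps Abcg2, at 40.3 and 39.5 TPM, and Abcc6, at 20.2 and 23.7. Of 11 transporters, 8 were detected, 7 lower and 3 higher of the 10 counted, and Slco1a1 was lower beyond 2-fold (248 and 83 counts, log2 ratio -1.41). Of the 7 enzymes that undo or precede conjugation, 6 were detected. Ces1d, a carboxylesterase, was at 408 and 246 TPM, the epoxide hydrolases Ephx2 and Ephx1 at 62.4 and 50.4 and at 31.0 and 16.3, and the glucuronidase Gusb at 14.6 and 15.8. Ephx1 was lower beyond 2-fold, with 7347 and 3190 counts and a log2 ratio of -1.04.

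All 19 listed regulators of these genes were detected, 7 lower and 12 higher in replicate 2. Cebpa was at 81.0 and 104 TPM, Ppara at 70.0 and 67.6, Hnf4a at 59.8 and 66.9 and the bile acid receptor Nr1h4 at 33.1 and 32.9. None passed 2-fold. Of 9 known targets of the oxidative stress and dioxin receptor pathways, 6 were detected. Hmox1 led, as given above, followed by Txnrd1 at 18.7 and 19.8 TPM, Srxn1 at 8.60 and 3.80 and Nqo1 at 5.01 and 3.64. Cyp1a1, the classical target of the dioxin receptor Ahr, was higher in replicate 2 beyond 2-fold, with 44 and 166 counts (log2 ratio 2.07) and 0.12 and 0.54 TPM.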

How the data were processed

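Poly(A)+ RNA of 2 E18 liver libraries was analysed from gene and transcript tables on mm10 and gene and junction tables on mm9. Per the file headers, the deposited mm10 tables hold expected counts (estimated counts per gene), TPM, FPKM, posterior estimates and, per transcript, the percent of the gene's TPM. The deposited mm9 junction list holds whole read counts. The deposited mm9 gene table holds RPKM values. The aligner and the quantifier: not given in the sources used here.

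Members, lists and thresholds were chosen with earlier results of these data known. Symbols, biotypes and positions came from GENCODE M21, and upstream sequences from RefSeq. Every member with a mean TPM of at least 1 is named with both values, and of each pathway list up to 4 genes by mean TPM, plus any past 2-fold that reached a mean count of 50. Of the genes this names, 1 is not reported here. Expected counts were rounded and scaled by TMM in edgeR 4.0.16 (R 4.3.3), with DESeq2 1.42.0 size factors as an alternative. The 2-fold step was tested on simulated Poisson counts with planted changes. These had no variation between libraries beyond counting, so the test covers the calculation and not the calls between these 2 libraries. Intervals are exact binomial (scipy 1.17.1). Junction ends were matched to the authors' mm9 exon table, and no coordinate was converted. With 1 library on each side no test was made. Other settings tried are given in the closing section.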

Additional observations from a re-analysis of the deposited data

Results flagged for a closer look

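In the mm9 junction list, 11 donor sites that match no listed first exon were joined to the shared Ugt1a exon 2, with 40 reads in all against 3340 from listed first exons. They were outside the shares given above. The 3 with more than 3 reads in R1 and R2 together were flagged, as data not otherwise used. That cut-off does not separate real junctions from mapping errors. The donor at base 90024184 of mm9 chromosome 1, between the first exons of Ugt1a6b and Ugt1a6a, had 12 reads (6 and 6). The donor at base 89922634, before the first exon of Ugt1a10, had 9 reads (4 and 5). The donor at base 90084094, between the first exons of Ugt1a5 and Ugt1a2, had 6 reads (3 and 3).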

How the results depend on the processing

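Of 38 alternatives to 8 results, 27 stayed within 1.5 times a count, the spread between libraries or 0.05 of a ratio or correlation. The other 11 moved and 0 reversed. Counts and shares cannot change sign, so only the median log2 ratio and the correlation could have reversed. For the share of TPM, either library alone falls within the spread between libraries by arithmetic, so those settings could not have moved. At a mean TPM of at least 5, 22 members counted as detected, against 34 at a mean TPM of at least 1. At a mean RPKM of at least 1 on mm9 there were 25, in another unit and annotation, which still counts as within 1.5 times. With a mean count of at least 10, 2 members lay beyond 2-fold, and with no filter 7. The median log2 ratio was -0.29 as a ratio of TPM, where that of all genes was 0.11. The members held 0.197% of expected counts and 0.301% of the TPM of protein-coding genes other than globins. At 5% and 20% of the count, 7 and 2 members had counts shared between genes. The share of Ugt1a1 in the Ugt1a total was 67.7% in TPM, 65.8% in expected counts and 68.3% with the Ugt1a6a and Ugt1a6b junctions counted as 1. The causes were not tested. Leaving out each library gave 33 to 34 members detected, 0.209% to 0.225% of TPM, 53.7% to 55.9% of junction reads for Ugt1a1 and 7 members led by 1 transcript. With the TPM of 1 library alone, rho was 0.969 to 0.971. The RPKM side was still the mean of both values there, so neither library was fully left out. No paired analysis was possible because there is 1 group. The ratios have 1 library on each side, so none could be left out. Members under about 10 counts are limited by depth.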

Other observations

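In the mm9 junction list, 6 further junctions ended within 5 bases of the shared Ugt1a exon 2 but not at its first base, with 175 reads in all. A pair of them, from bases 89999951 and 90031508 of mm9 chromosome 1 to base 90111617, had 85 reads each, with 47 and 38 reads in both cases. The former lies between the donors of Ugt1a7c and Ugt1a6b and the latter between those of Ugt1a6b and Ugt1a6a. A place between donors can still lie inside a gene, and whether the pair belongs to Ugt1a6b and Ugt1a6a was not tested. The 6 junctions were not counted in any share above.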
